A study of Homo sapiens with 12 samples.

Results

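The 10 genes described here are DKK4 and 9 other genes of Wnt/beta-catenin signalling, most of them feedback genes that the pathway itself switches on: DKK1, AXIN2, LGR5, NKD1, NOTUM, SP5, ZNRF3, TCF7 and CTNNB1. They were chosen by symbol from the 28256 gene symbols of the deposited table, with the transcript of the highest total over all libraries kept for each. All 10 were among the 13166 genes that passed the filter on low counts and were tested. RNA was sequenced from HepG2, an established human hepatoma line labelled wild type, in 12 libraries, 3 in each of 4 groups. Every group spent 24 h in charcoal-stripped serum and a further 24 h in its treatment. The groups were dexamethasone with KLA (DexKLA), dexamethasone at 50 nM (Dex), KLA at a labelled dose of 100 ng/µl, and DMSO at 0.1% as the vehicle. DexKLA carried both single doses. Dexamethasone is a synthetic agonist of the glucocorticoid receptor, and what KLA stands for is not written in the labels. They give a DMSO percentage for the vehicle alone and do not say whether the libraries of a group came from separate cultures. The p-values therefore measure library-to-library spread, part or all of which may be technical.

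In Wnt signalling, a secreted Wnt protein binds a Frizzled receptor and an LRP5 or LRP6 co-receptor, the complex that destroys beta-catenin is held back, and beta-catenin enters the nucleus and joins TCF/LEF proteins at target genes. Many of these targets act against the pathway, at the cell surface or in the cytoplasm. HepG2 carries a deletion in a CTNNB1 allele that makes a beta-catenin the destruction complex cannot mark, so part of the pathway runs in these cells without a Wnt signal. In liver, beta-catenin signalling is known for setting the gene programme of hepatocytes around the central vein and for mutations in liver tumours.

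SP5 and DKK1 are shown by sequence because their windows held the core motif of TCF/LEF proteins. RefSeq promoter windows were read for 4 members (SP5, DKK1, CTNNB1 and TCF7). The other members were not searched for motifs. The window is the 250 bases before the RefSeq start site in GRCh38.p14, written 5′ to 3′ on the gene's strand, with each CTTTGA on either strand in capitals (TCAAAG where it lies on the opposite strand). SP5 lies on the plus strand of chromosome 2, window chr2:170715087-170715336, and DKK1 on the plus strand of chromosome 10, window chr10:52314031-52314280.
SP5: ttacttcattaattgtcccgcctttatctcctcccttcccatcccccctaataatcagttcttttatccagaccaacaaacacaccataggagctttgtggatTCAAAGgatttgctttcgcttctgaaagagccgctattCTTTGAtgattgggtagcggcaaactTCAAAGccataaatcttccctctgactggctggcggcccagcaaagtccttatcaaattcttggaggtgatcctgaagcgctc
DKK1: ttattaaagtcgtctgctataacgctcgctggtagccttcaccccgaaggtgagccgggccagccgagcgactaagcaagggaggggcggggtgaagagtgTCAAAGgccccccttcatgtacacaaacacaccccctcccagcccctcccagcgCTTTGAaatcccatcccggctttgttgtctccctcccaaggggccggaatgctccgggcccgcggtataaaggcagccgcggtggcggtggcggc
SP5 had 3 matches, at 147 to 142, 109 to 104 and 83 to 78 bases before the start, and DKK1 had 2, at 149 to 144 and 95 to 90. CTNNB1 and TCF7 had 0. Of 35116 promoter windows of that length, 11.2% held CTTTGA at least once, 0.977% at least 2 times and 0.0655% at least 3 times. AGAACA, which is only a part of the longer element that the glucocorticoid receptor binds, was in 0 of the SP5, DKK1 and CTNNB1 windows and in 1 of the TCF7 windows, against 12.4% of all windows. A match of letters is a description of the window and not a binding site.

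Library totals ran from 4514606 to 11484497 counts in DexKLA, from 3642685 to 17782057 in Dex, from 15998657 to 20933501 in KLA and from 3317740 to 5277463 in DMSO. All KLA libraries had larger totals than any DMSO library. KLA and DMSO share no depth class (the 6 deeper against the 6 shallower libraries), so depth and KLA cannot be told apart in that comparison. Libraries also differed in how level followed transcript length. Spearman's rho of transcript length with each gene's deviation from its mean was 0.192 to 0.395 in DMSO and −0.526 to −0.152 in KLA. It was −0.534 to 0.137 in Dex and −0.134 to 0.385 in DexKLA. Its part in the results below was not tested beyond the fits with this length trend removed. Some libraries stood apart from their group. The chi-square per degree of freedom between libraries was 18.1 and 9.99 for DexKLA replicate 3 against the others of its group and 21.9 and 22.7 for KLA replicate 3, against at most 5.77 for the other pairs, although this measure grows with depth. DMSO replicate 1 lay at −39.6 on the first principal component, with the other DMSO libraries at −15.6 and −16.9. All treated libraries lay higher on it, the nearest being DexKLA replicate 3 at −5.49. For DKK4, for members whose calls depend on these libraries and for the pathway lists, values without them are given. All 10 hepatocyte and hepatoma markers were detected, with a summed level of 127000 to 153000 CPM (counts scaled to a common library total) in DexKLA, 132000 to 139000 in Dex, 121000 to 129000 in KLA and 103000 to 117000 in DMSO. The T cell marker CD3E, the fibroblast marker COL1A2 and the endothelial marker KDR were at 0 in all libraries. The hepatocyte sum was lowest in DMSO, and its part in the results below was not tested.

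DKK4, a secreted antagonist that blocks the LRP5 and LRP6 co-receptors and is itself a beta-catenin target, was higher with Dex, both without and with KLA. It was called in 4 of the 7 comparisons, and no other member was called in more than 2. DKK1, its close relative, did not follow it: it was lower in DexKLA than in KLA, and higher in KLA than in DMSO. LGR5 was lower in Dex than in DMSO. The other 7 genes passed the test in none of the 7 comparisons. A gene was called at a Benjamini-Hochberg adjusted p under 0.05 in edgeR's quasi-likelihood test over all 13166 genes.

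DKK4 (transcript NM_014420, 890 bases, minus strand of chromosome 8, positions 42374063 to 42377229 in hg38) rested on 24 to 487 counts a library. Levels are CPM after TMM scaling, which corrects library totals for differences in composition. DKK4 had 25.7, 37.8 and 36.1 CPM in DexKLA replicates 1 to 3, 31.6, 27.9 and 24.2 CPM in Dex, 12.2, 7.83 and 16.3 CPM in KLA, and 6.76, 9.33 and 10.5 CPM in DMSO. All 6 libraries with Dex lay above all 6 libraries without it, DexKLA overlapped Dex, and KLA overlapped DMSO. The share of all tested genes whose libraries separate between groups was not counted, for DKK4 or for any gene below. The mean was 33.2 ± 6.56 CPM in DexKLA, 27.9 ± 3.70 in Dex, 12.1 ± 4.24 in KLA and 8.85 ± 1.90 in DMSO (SD, n = 3 each). In bulk RNA, the share of cells that express a gene and the RNA per cell cannot be told apart.

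**Figure D1:**
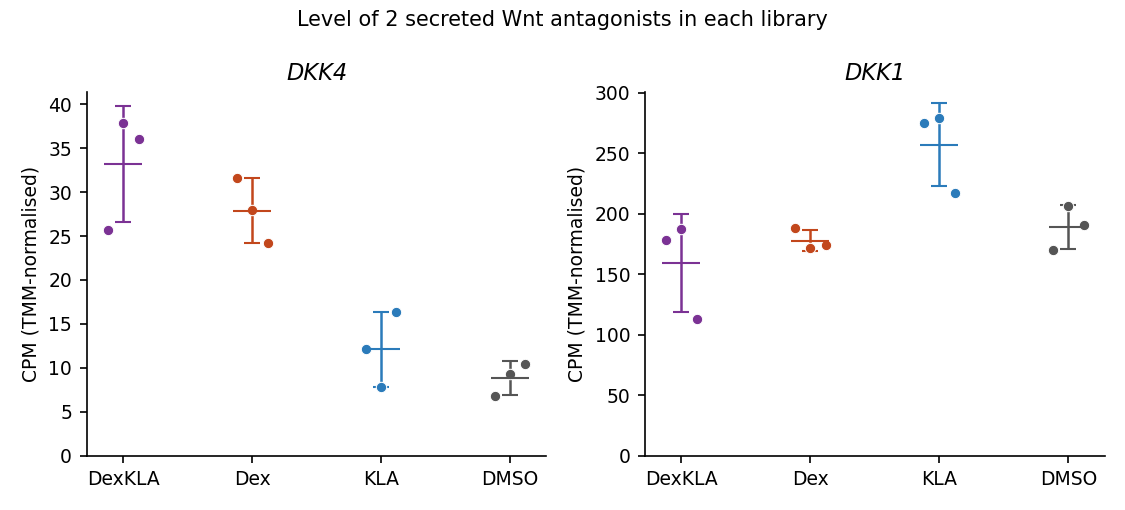
TMM-normalised CPM (vertical axis, linear, from 0) of DKK4 and DKK1 in DexKLA, Dex, KLA and DMSO, with a point for each library, a line at the group mean and bars of 1 SD. The DexKLA and Dex libraries of DKK4 lie between 24.2 and 37.8 CPM and the KLA and DMSO libraries between 6.76 and 16.3 CPM, while for DKK1 the KLA libraries (217 to 279 CPM) lie above all others.

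Dex against DMSO asks what the glucocorticoid does alone. DKK4 rose by 1.63 ± 0.25 on the log2 scale, a fitted ratio of 3.09 (adjusted p = 0.000828, edgeR; 3 of 3 Dex libraries above all DMSO libraries). Its change was the 15th highest of 13166. Of the 10 genes, 2 were called, DKK4 up and LGR5 down, against 2.05% of all tested genes (270). Among the shallower libraries alone, which hold Dex replicates 1 and 3 and all DMSO libraries, the DKK4 change was 1.62 ± 0.19, and without the 3 libraries that stood apart it was 1.49 ± 0.22. With the length trend removed it was 1.40 ± 0.25 and was called.

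DexKLA against KLA asks what Dex adds in cells that also received KLA. DKK4 rose by 1.45 ± 0.20, a ratio of 2.73 (adjusted p = 0.000274), and ranked 8th of 13166 from the highest change. Here 2 of the 10 were called, DKK4 up and DKK1 down, against 0.653% of all tested genes (86). Within the deeper libraries alone (DexKLA replicates 1 and 3, all KLA libraries), the DKK4 difference was 1.35 ± 0.25 and was not called (adjusted p = 0.0651). Without the 3 libraries that stood apart the change was 1.64 ± 0.19 (adjusted p = 3.73e-05). With the length trend removed it was 1.62 ± 0.19 and was called.

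The Dex effect averaged over cells without and with KLA raised DKK4 by 1.54 ± 0.16, a ratio of 2.91 (adjusted p = 2.44e-06). It was the only member called there, against 1.51% of all tested genes (199). DKK1 was −0.39 ± 0.10 (adjusted p = 0.0570) and LGR5 −0.31 ± 0.09 (adjusted p = 0.0889). Both were called without KLA replicate 3 or without the 3 libraries that stood apart, DKK1 also without DexKLA replicate 2 and LGR5 without DexKLA replicate 3. Apart from the fits that left out a single library, DKK1 was called under 8 of 12 alternatives and LGR5 under 3 of 12. For DKK1 these included the DESeq2 test (−0.39, adjusted p = 0.0297), library size alone (−0.45, adjusted p = 0.0111) and depth class as a covariate (−0.39, adjusted p = 0.0451). The interaction, the test of whether the Dex effect differed with KLA, was −0.18 ± 0.32 for DKK4 (adjusted p = 0.782). It called 0 of the 10 members, against 0.038% of all tested genes (5). Of the members, 2 had an unadjusted p under 0.05 for the interaction, DKK1 and SP5, beside 2922 of all 13166 tested genes. DKK4's interaction changed sign, to 0.11, without KLA replicate 3.

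KLA against DMSO and DexKLA against Dex ask what KLA does without and with Dex. DKK4 was 0.42 ± 0.25 higher in KLA than in DMSO, which was not called (adjusted p = 0.247). This rested on single KLA libraries, since it became 0.67 ± 0.22 and was called without KLA replicate 2, the lowest KLA library (adjusted p = 0.0412), 0.14 ± 0.23 without KLA replicate 3, and 0.00 ± 0.25 without the 3 libraries that stood apart. With the length trend removed the DKK4 difference in KLA against DMSO was 0.13 ± 0.25. In DexKLA against Dex the DKK4 difference was 0.25 ± 0.20 (adjusted p = 0.800). That comparison called 0 of 10 members, none of them with an unadjusted p under 0.05, and 0% of all tested genes, of which 935 had an unadjusted p under 0.05 in edgeR. The DESeq2 and limma voom tests called 0 genes there as well. DexKLA against DMSO raised DKK4 by 1.87 ± 0.24, a ratio of 3.66 (adjusted p = 0.000118), the only member called, against 4.22% of all tested genes (556), and by 1.64 ± 0.23 without the 3 libraries. Comparisons that share DMSO or KLA libraries are not independent of each other.

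**Figure D2:**
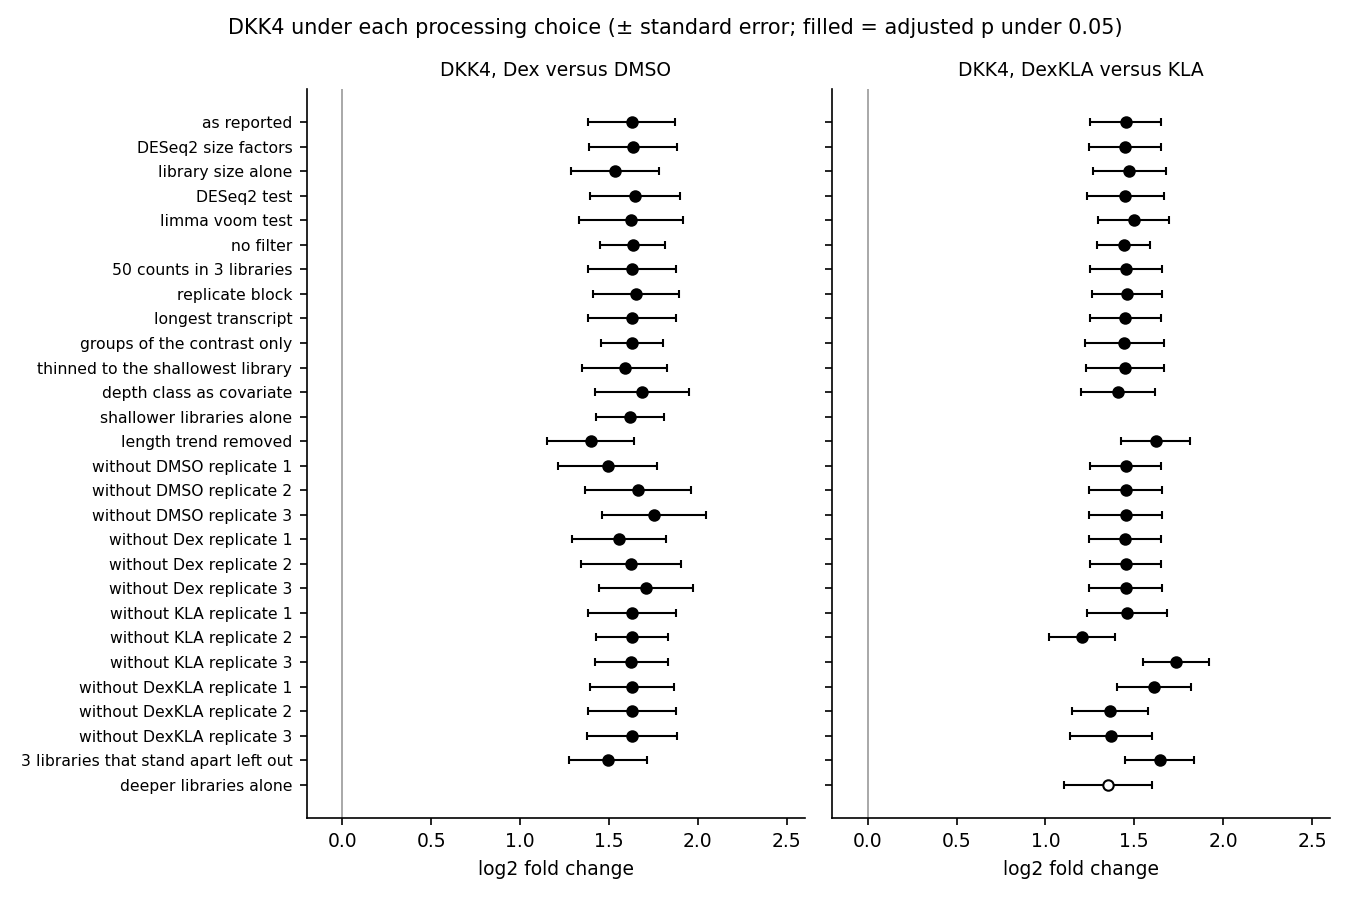
Fitted log2 fold change of DKK4 (horizontal axis) ± standard error under each processing choice (rows), for Dex versus DMSO and DexKLA versus KLA, with filled points at an adjusted p under 0.05. The values run from 1.40 to 1.75 for Dex versus DMSO, all filled, and from 1.21 to 1.73 for DexKLA versus KLA, where the deeper libraries alone give the single open point.

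DKK1 (NM_012242, 1799 bases, chromosome 10, positions 52314281 to 52317657) encodes another secreted antagonist of LRP5 and LRP6. It had 178, 187 and 113 CPM in DexKLA replicates 1 to 3, 188, 172 and 174 CPM in Dex, 275, 279 and 217 CPM in KLA, and 170, 206 and 191 CPM in DMSO. The KLA libraries lay above every other library, and the other 3 groups overlapped. DKK1 fell by 0.70 ± 0.14 on the log2 scale in DexKLA against KLA (adjusted p = 0.0186, 3 of 3 libraries lower). It rose by 0.44 ± 0.14 in KLA against DMSO (adjusted p = 0.0454, 3 of 3 higher), the only member called in that comparison, which called 13.7% of all tested genes (1806). In Dex against DMSO it differed by −0.09 ± 0.15 (adjusted p = 0.769), and its interaction was −0.61 ± 0.21 (adjusted p = 0.0961).

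The DKK1 calls lay near the threshold. The KLA against DMSO call was lost when any DMSO library, KLA replicate 1 or 2, or Dex replicate 1 or 3 was left out, with changes from 0.37 to 0.51, and 1806 genes called became 5 without DMSO replicate 1. The same call was lost with limma voom and with library size alone (0.33 ± 0.13, adjusted p = 0.0832). Depth class as a covariate (0.66 ± 0.20, adjusted p = 0.163) and removal of the length trend (0.32 ± 0.14, adjusted p = 0.163) also lost it. The DexKLA against KLA call was lost without KLA replicate 1, KLA replicate 2 or DexKLA replicate 3, the lowest library (−0.50 ± 0.12). It was also lost with the compared groups alone and in the deeper libraries alone (−0.83 ± 0.19, adjusted p = 0.248). Without the 3 libraries that stood apart the DKK1 change was 0.48 ± 0.08 in KLA against DMSO and −0.60 ± 0.08 in DexKLA against KLA, both called. The antisense gene PRKG1-AS1 shares 212 exonic bases with DKK1 on the opposite strand, and without strand information their reads cannot be told apart.

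LGR5 (NM_003667, 4561 bases, chromosome 12, positions 71439798 to 71586308) encodes a receptor for R-spondins, which protect Frizzled from removal, and marks stem cells in several tissues. It had 53.7, 64.1 and 79.7 CPM in DexKLA replicates 1 to 3, 56.0, 58.4 and 59.8 CPM in Dex, 75.8, 73.7 and 67.5 CPM in KLA, and 80.2, 81.5 and 82.1 CPM in DMSO. Each DMSO library lay above all 9 treated libraries, by a small margin for DexKLA replicate 3. LGR5 fell by 0.48 ± 0.13 in Dex against DMSO (adjusted p = 0.0459, 3 of 3 lower), a call lost when any single DMSO or Dex library, KLA replicate 2 or DexKLA replicate 2 was left out. Without the 3 libraries that stood apart it was −0.49 ± 0.10 and was called (adjusted p = 0.00366). The call was also lost with depth class as a covariate (adjusted p = 0.0855), with the length trend removed (adjusted p = 0.0775) and with limma voom (adjusted p = 0.0599), and was kept in the shallower libraries alone (−0.48 ± 0.12, adjusted p = 0.0167). In DexKLA against DMSO it was −0.30 ± 0.12 (adjusted p = 0.162), which became −0.47 and was called without DexKLA replicate 3 (adjusted p = 0.0131), and −0.49 and called without the 3 libraries (adjusted p = 0.00511). The antisense gene AC078860.1 shares 208 exonic bases with LGR5.

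SP5 (NM_001003845, 2043 bases, chromosome 2, positions 170715337 to 170718078) encodes a transcription factor that acts on Wnt target genes. It had 340, 374 and 335 CPM in DexKLA, 391, 391 and 369 CPM in Dex, 358, 336 and 318 CPM in KLA, and 298, 309 and 299 CPM in DMSO. The DMSO libraries lay below all others. The difference was 0.34 ± 0.10 in Dex against DMSO (adjusted p = 0.0593), 0.16 ± 0.10 in KLA against DMSO and 0.21 ± 0.10 in DexKLA against DMSO, none of them called. The Dex against DMSO difference was called by the DESeq2 test, with the libraries of both groups alone, without KLA replicate 3, without DexKLA replicate 3 and without all 3 libraries that stood apart.

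**Figure D3:**
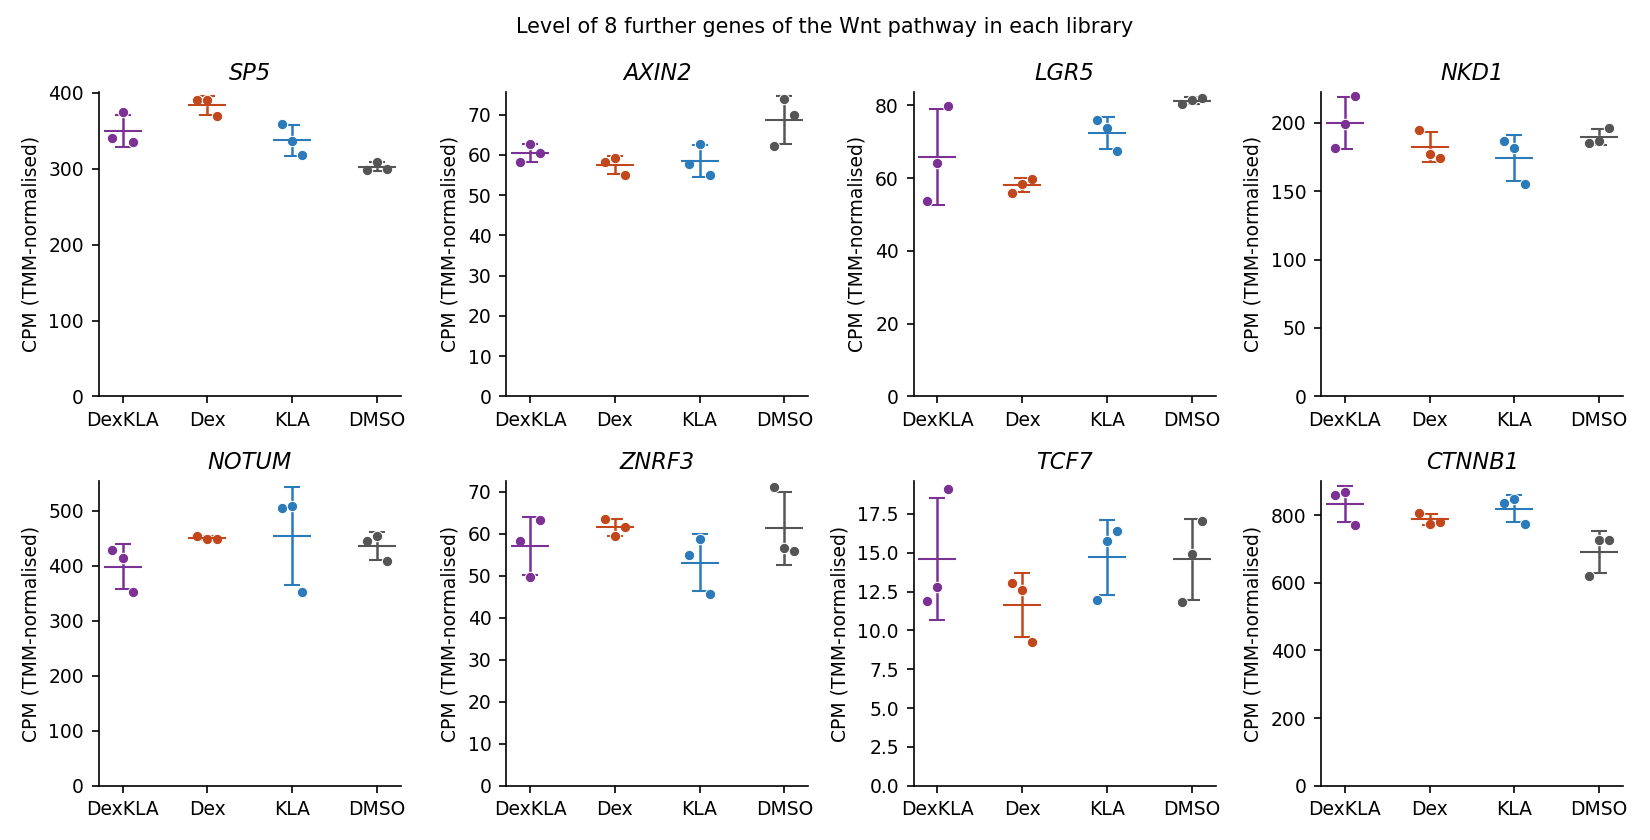
TMM-normalised CPM (vertical axes, linear, each from 0) of 8 genes of the pathway in DexKLA, Dex, KLA and DMSO, with a point for each library, a line at the mean and bars of 1 SD. SP5 and CTNNB1 are lowest and LGR5 is highest in the DMSO libraries, while NKD1, NOTUM, ZNRF3 and TCF7 overlap between DMSO and each treated group.

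The remaining surface and secreted feedback genes were not called in any comparison. NOTUM, an enzyme that strips the lipid from Wnt proteins, averaged 399 ± 41.0 CPM in DexKLA, 450 ± 3.67 in Dex, 455 ± 89.5 in KLA and 436 ± 24.8 in DMSO. KLA replicate 3 (352 CPM) and DexKLA replicate 3 (352 CPM) were its lowest libraries. ZNRF3, a ubiquitin ligase that removes Frizzled from the surface, averaged 57.1 ± 6.93 CPM in DexKLA, 61.5 ± 2.01 in Dex, 53.1 ± 6.78 in KLA and 61.3 ± 8.64 in DMSO. Each treated group overlapped DMSO, while all KLA libraries lay below all Dex libraries.

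Of the cytoplasmic feedback genes, AXIN2, a scaffold of the destruction complex and a commonly used reporter of the pathway, averaged 60.5 ± 2.22 CPM in DexKLA, 57.5 ± 2.24 in Dex, 58.5 ± 3.92 in KLA and 68.7 ± 5.94 in DMSO. Its difference was −0.26 ± 0.11 in Dex against DMSO (adjusted p = 0.183) and −0.24 ± 0.10 in KLA against DMSO (adjusted p = 0.124). Without the 3 libraries that stood apart the Dex difference was −0.32 and was called (adjusted p = 0.0427). The KLA difference became −0.35 and was called when libraries were scaled by size alone. AXIN2 shares 1316 exonic bases with AC004805.1 on the same strand, so reads there cannot be assigned to either gene. NKD1, which binds Dishevelled and dampens the signal, averaged 200 ± 19.0 CPM in DexKLA, 182 ± 11.1 in Dex, 174 ± 16.7 in KLA and 189 ± 5.86 in DMSO.

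Of the nuclear genes, CTNNB1, which encodes beta-catenin, had 860, 867 and 771 CPM in DexKLA, 807, 774 and 780 CPM in Dex, 836, 847 and 774 CPM in KLA, and 618, 726 and 726 CPM in DMSO. All treated libraries lay above all DMSO libraries. The share of all tested genes with DMSO apart from every treated library was not counted, here or for SP5 and LGR5. The differences from DMSO were 0.27 ± 0.10 for DexKLA (adjusted p = 0.132), 0.19 ± 0.10 for Dex (adjusted p = 0.303) and 0.25 ± 0.10 for KLA (adjusted p = 0.105), and none was called. The DexKLA difference was called without DexKLA replicate 3 (0.32, adjusted p = 0.0354), without the 3 libraries that stood apart (0.25, adjusted p = 0.0360) and by the DESeq2 test (0.28, adjusted p = 0.0405), which also called the KLA difference (0.26, adjusted p = 0.0338). TCF7, a TCF/LEF partner of beta-catenin, had 42 to 326 counts a library, the lowest member total over the 12 libraries together. It averaged 14.6 ± 3.94 CPM in DexKLA, 11.6 ± 2.08 in Dex, 14.7 ± 2.42 in KLA and 14.6 ± 2.61 in DMSO.

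**Figure D4:**
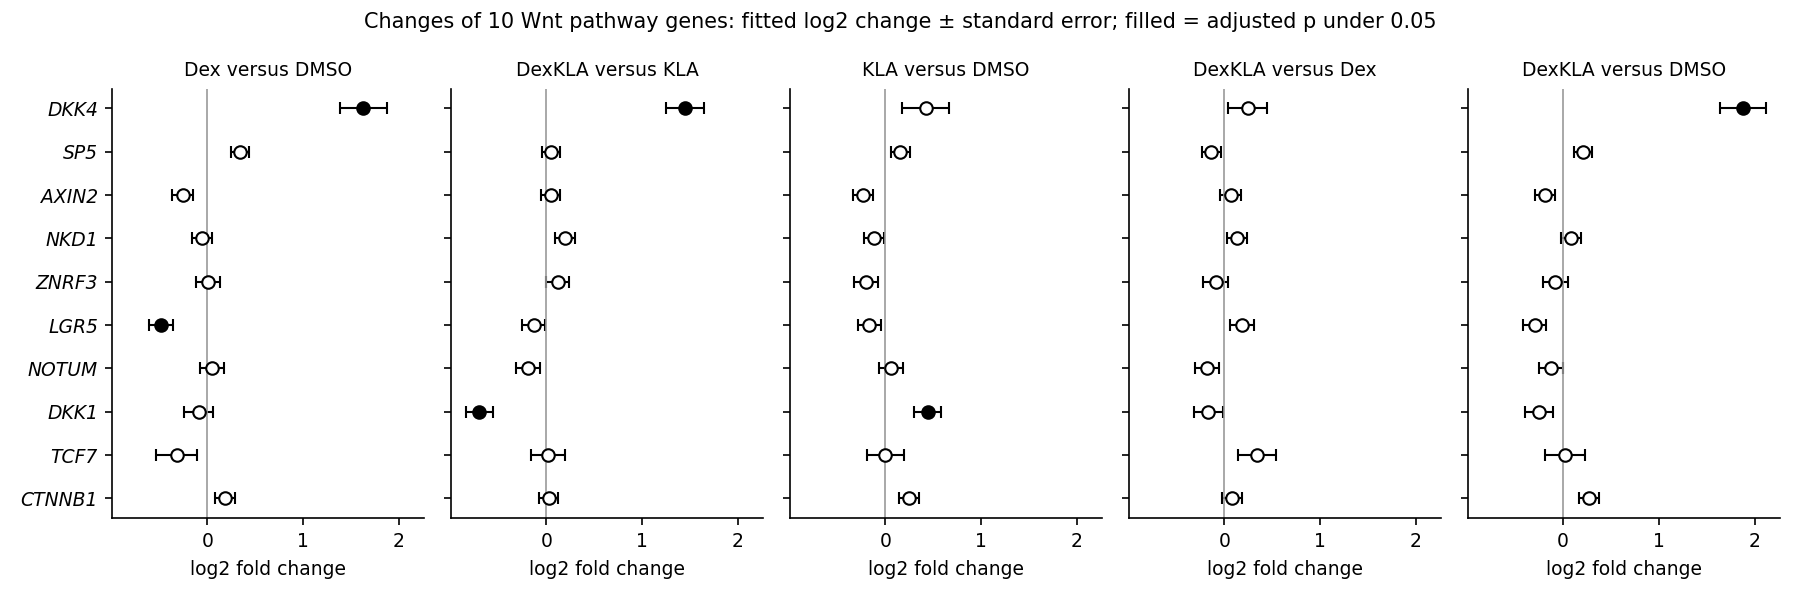
Fitted log2 fold change (horizontal axes) ± standard error of the 10 genes (rows) in 5 comparisons (panels), with filled points at an adjusted p under 0.05. DKK4 is filled in 3 panels, at 1.63, 1.45 and 1.87, and the other filled points are LGR5 at −0.48, DKK1 at −0.70 and DKK1 at 0.44.

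The members' median log2 change was −0.02 in Dex against DMSO, 0.03 in DexKLA against KLA and −0.03 in DexKLA against DMSO, beside medians over all tested genes of −0.01, 0.00 and −0.02. Per kilobase of transcript, the mean level over all 12 libraries was highest for CTNNB1 (215 CPM per kb), NOTUM (197), SP5 (168) and DKK1 (109). DKK4 followed at 23.1 CPM per kb, and LGR5 (15.2), AXIN2 (14.4), NKD1 (10.9), ZNRF3 (8.49) and TCF7 (4.12) were lower. By group, DKK4 reached 37.3 ± 7.37 CPM per kb in DexKLA and 31.4 ± 4.16 in Dex, against 13.6 ± 4.76 in KLA and 9.95 ± 2.14 in DMSO (SD, n = 3 each).

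Across the 12 libraries, which share group, depth and composition, Pearson's r with DKK4 on log2 CPM was 0.72 for SP5 and 0.52 for CTNNB1. It was −0.66 for LGR5, −0.55 for DKK1 and −0.46 for AXIN2, and between −0.41 and 0.27 for NOTUM, ZNRF3, TCF7 and NKD1. Within groups, after the group means were removed, r was −0.71 for ZNRF3, −0.67 for NOTUM, −0.24 for DKK1 and 0.46 for TCF7, and between 0.03 and 0.15 for CTNNB1, NKD1, AXIN2, SP5 and LGR5.

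The 5 genes most like DKK4 by this measure, out of 12386 compared, were MATN3 (r = 0.953), UGT2B11 (0.953), PTGDR2 (0.950), IGFBP2 (0.943) and CYP3A5 (0.942). MATN3, a cartilage matrix protein gene, averaged 363 ± 41.3 CPM in DexKLA, 351 ± 17.4 in Dex, 165 ± 4.76 in KLA and 141 ± 14.5 in DMSO. PTGDR2, which encodes a prostaglandin D2 receptor, averaged 25.7 ± 2.82 CPM in DexKLA, 27.6 ± 3.81 in Dex, 11.4 ± 1.17 in KLA and 9.75 ± 2.22 in DMSO. For all 5 genes, the DexKLA and Dex libraries overlapped, as they did for DKK4. The 5 genes were chosen for this pattern, so no test is given. IGFBP2, which binds insulin-like growth factors, averaged 49.9 ± 3.51 CPM in DexKLA, 44.7 ± 3.69 in Dex, 26.6 ± 4.47 in KLA and 19.8 ± 1.47 in DMSO. UGT2B11, a glucuronosyltransferase gene of a family with near-identical copies, lay between 50.5 and 71.5 CPM in DexKLA and averaged 47.8 ± 4.68 CPM in Dex, 31.1 ± 2.87 in KLA and 20.9 ± 3.89 in DMSO. CYP3A5, a drug-metabolising enzyme gene, averaged 15.5 ± 1.17 CPM in DexKLA, 14.6 ± 2.15 in Dex, 9.44 ± 1.41 in KLA and 6.72 ± 0.989 in DMSO. PTGDR2 overlaps CCDC86 on the opposite strand and AP000777.3 on the same strand, each with 142 shared exonic bases. UGT2B11 overlaps AC111000.4 on the opposite strand.

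Other genes of the pathway were read from 7 lists of ligands, receptors, antagonists, cytoplasmic regulators, nuclear partners and targets, of which 77 genes were tested. In Dex against DMSO 3 of 77 (3.90%) were called, 1 up and 2 down, and in DexKLA against KLA 1 of 77 (1.30%), down. In DexKLA against DMSO 5 of 77 were called (6.49%), 1 up and 4 down, and in KLA against DMSO 12 of 77 (15.6%), 1 up and 11 down. These shares stand beside 2.05%, 0.653%, 4.22% and 13.7% of all tested genes. In DexKLA against Dex and in the interaction, edgeR called 0 of 77.

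Among ligand and secretion genes 3 of 21 were tested (WNT2B, WNT3 and PORCN), and none was called in any comparison. Of 15 other antagonist genes 5 were tested, since DKK2, SFRP1 and WIF1 had 0 counts in every library, which allows a level of up to 0.143 to 0.904 CPM a library, and DKK3 had at most 4 counts. Of these, KREMEN1, a co-receptor of DKK proteins, fell by 0.53 in KLA against DMSO. Of 21 receptor and R-spondin genes 11 were tested, and FZD9, a Frizzled receptor gene, rose by 0.89 in KLA against DMSO.

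Of 22 cytoplasmic regulators 20 were tested. FBXW11, which marks beta-catenin for destruction, fell by 0.40 in KLA against DMSO, and CSNK1A1, a kinase of the destruction complex, fell by 0.35 in DexKLA against DMSO. Of 20 genes on the list of nuclear partners 17 were tested, and LEF1 had at most 3 counts. In KLA against DMSO 5 on this list fell. BCL9 fell by 0.69 and BCL9L by 0.56, both co-activators of beta-catenin, and TLE1, a co-repressor, by 0.44. CTNND1, a catenin better known for binding cadherins, fell by 0.56, and EP300, named after its value was seen, by 0.62. CTBP1, a co-repressor, fell by 0.37 in DexKLA against DMSO.

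Of 17 target genes known from other tissues 9 were tested. SOX4, a transcription factor gene, fell by 0.53 in Dex against DMSO and by 0.52 in DexKLA against DMSO, and ID2, an inhibitor of helix-loop-helix factors, fell by 0.54 in DexKLA against KLA. Averaged over KLA, Dex lowered SOX4 by 0.47 ± 0.09 (adjusted p = 0.00255) and ID2 by 0.48 ± 0.09 (adjusted p = 0.00365). In KLA against DMSO, PPARD fell by 0.46 and CCND1, a cell cycle gene, by 0.33.

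Of 17 beta-catenin targets of pericentral hepatocytes and liver tumours 12 were tested. SLC13A3, a dicarboxylate transporter gene, averaged 67.1 CPM in Dex against 42.6 CPM in DMSO and rose by 0.65 ± 0.12 (adjusted p = 0.00510). It also rose in DexKLA against DMSO, by 0.46 ± 0.12 (adjusted p = 0.0349). CYP1A1 averaged 29.7 CPM in Dex against 49.6 CPM in DMSO and fell by 0.75 ± 0.15 (adjusted p = 0.00959). It also fell in DexKLA against DMSO, by 0.60 ± 0.14 (adjusted p = 0.0255), and in KLA against DMSO, by 0.57 ± 0.14 (adjusted p = 0.0140), and it was not called in DexKLA against KLA, at 32.0 CPM in DexKLA and 33.1 CPM in KLA. GLUL, glutamine synthetase and a standard marker of pericentral hepatocytes, fell by 0.42 ± 0.10 in KLA against DMSO (adjusted p = 0.0141). In Dex against DMSO the other 10 of these 12 were not called.

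The list calls depended on single libraries. In KLA against DMSO, 0 of the 12 were called without DMSO replicate 1 or with depth class as a covariate, 2 of the 12 without KLA replicate 3 or with the length trend removed, and 5 of the 12 without the 3 libraries that stood apart, where BCL9, BCL9L, TLE1, PPARD, FBXW11, EP300 and CYP1A1 were not called. The median change of the 12 was −0.50 over all libraries, −0.45 without DMSO replicate 1, −0.39 without KLA replicate 3 and −0.33 without the 3 libraries. In DexKLA against DMSO, 0 of the 5 were called without DMSO replicate 1, DexKLA replicate 1 or DexKLA replicate 2 or with depth class as a covariate, and all 5 without the 3 libraries, with a median change of −0.37 over all libraries and −0.33 to −0.41 in these fits. In Dex against DMSO, 1 of the 3 was called without DMSO replicate 1 or Dex replicate 2, and ID2 in DexKLA against KLA was not called without the 3 libraries that stood apart. The 3 list genes called for Dex averaged over KLA (SOX4, ID2 and SLC13A3) were called in all 12 fits that left out a library.

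**Figure D5:**
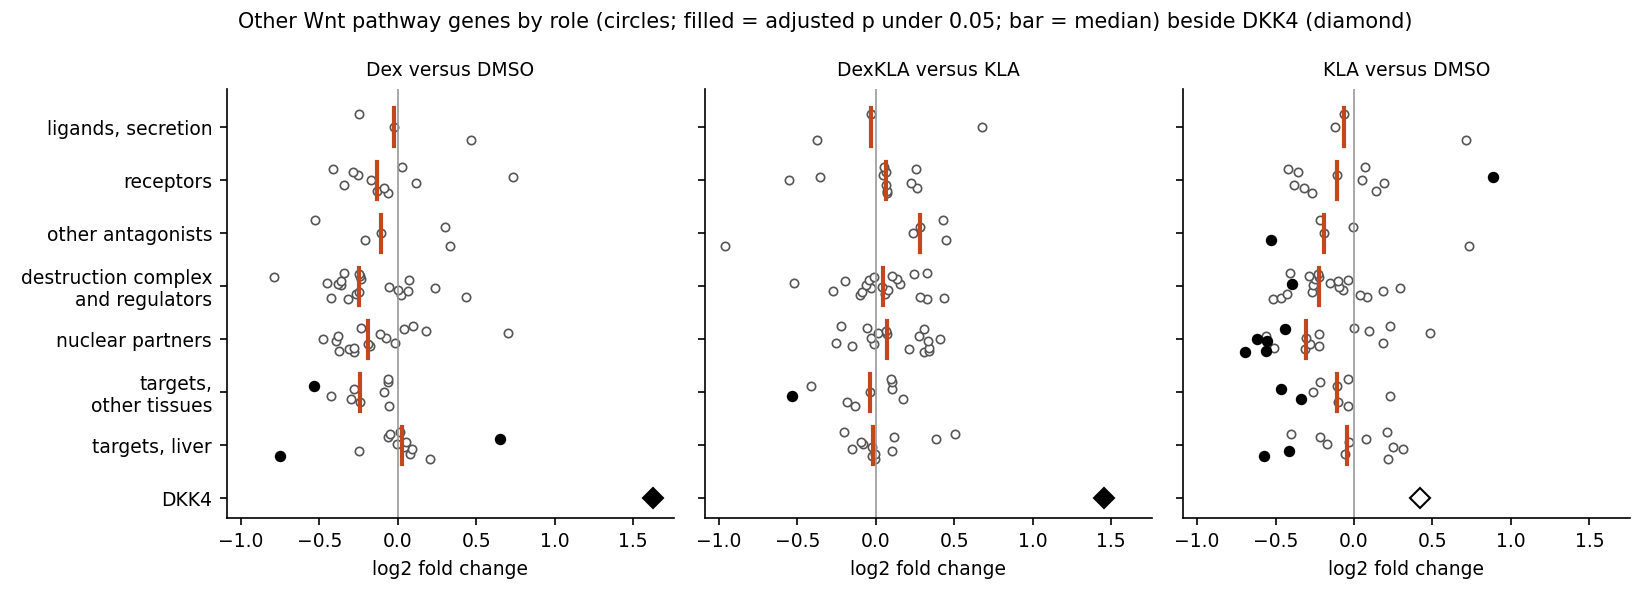
Fitted log2 fold change (horizontal axes) of 77 other pathway genes by role (rows), with DKK4 as a diamond in the lowest row, filled where the adjusted p is under 0.05 and with a bar at each list's median. DKK4 lies at 1.63, 1.45 and 0.42 in Dex versus DMSO, DexKLA versus KLA and KLA versus DMSO, and the filled circles number 3, 1 and 12.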

How the data were processed

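RNA from 12 HepG2 libraries was compared between 4 groups of 3. Per the submitters' processing notes, Trimmomatic, BWA 0.7.17, HOMER 4.10 and hg38 were used, without saying what each did. The authors deposited values in steps of 0.5 for 70507 RefSeq transcripts. They were taken to be estimated counts, and how the authors made these estimated counts before they were deposited is not given in the sources used here. They were rounded to whole numbers, and 406 transcripts without a symbol were left out, which removed 1.71% to 2.55% of each library. Rounding shifts only low counts noticeably, and keeping 1 transcript a symbol leaves out reads of other isoforms.

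Counts were scaled with TMM and tested with edgeR 4.0.16 (R 4.3.3) by the quasi-likelihood test, with 1 mean per group over 12 libraries (8 residual degrees of freedom), filterByExpr with a minimum count of 10, and Benjamini-Hochberg adjustment over 13166 genes. Changes are fitted log2 values ± standard error. The script was tested on simulated data. Replicate numbers, which the labels do not tie to a shared culture or day, were not used as a block in the reported fits.

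Members, lists and tests were chosen with earlier results of these data known. Named were the 10 members, up to 4 called genes with the smallest p per list and comparison, and the 5 genes with the highest Pearson r with DKK4 on log2 CPM (prior count 2, mean at least 1). Alternatives were the size factors and the test of DESeq2 1.42.0, library size alone, limma 3.58.1 voom, other filters, a replicate block, the longest transcript, the compared groups alone, thinning to 3317740 counts, depth class, removal of the trend with transcript length (loess span 0.3) and leaving out each library. Leaving out DMSO replicate 1, KLA replicate 3 and DexKLA replicate 3 together was chosen after seeing the data. Promoter windows are from RefSeq and were read for 4 members. DKK4 was not among them, so its promoter was not searched for either motif. Overlaps are from GENCODE, and floors of 3 counts cover counting error only.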

Additional observations from a re-analysis of the deposited data

How the results depend on the processing

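DKK4 kept its direction in Dex against DMSO, DexKLA against DMSO, DexKLA against KLA and the averaged Dex effect under every alternative run, and its call under all but the deeper libraries alone in DexKLA against KLA (1.354). Leaving out each library gave DKK4 changes of 1.493 to 1.754, 1.739 to 2.035, 1.207 to 1.734 and 1.418 to 1.68 in those comparisons, all called, and 0.1367 to 0.6675 in KLA against DMSO. Scaling by library size alone moved the median of all genes by −0.112 in KLA against DMSO, and the share of called genes that were higher became 26.3% against 59.3% in Dex against DMSO, 23.7% against 56.7% in KLA against DMSO, 27.7% against 67.3% in DexKLA against DMSO and 45.7% against 57.8% for the averaged Dex effect. Of 1525 values of the members' other uncalled results, 29 became called and 58 changed sign while uncalled.

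The replicate numbers share only a number: of 18 same-numbered pairs 1 had a correlation over 0.1 (median −0.041), and 0 of 12 libraries correlated best with their own number. With the replicate block, members called became 1 (2 without it) in Dex against DMSO and 2 (1 without it) for the averaged effect, and genes called became 134 in Dex against DMSO, 325 in DexKLA against DMSO and 0 in the interaction.

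Members called in Dex against DMSO were 1 with voom, depth class and the length trend removed, and 4 without the 3 libraries that stood apart. In KLA against DMSO they were 2 with the DESeq2 test and 0 with voom, depth class and the length trend removed. In DexKLA against DMSO they were 2 with the DESeq2 test and 3 without the 3 libraries. In DexKLA against KLA they were 1 with the compared groups alone and 0 in the deeper libraries. For the averaged effect they were 2 with library size, the DESeq2 test, thinning and depth class, and 3 with no filter, the length trend removed and without the 3 libraries. In the interaction they were 1 with no filter. Leaving out each library gave 1 to 3, 0 to 1, 1 to 3, 1 to 2 and 1 to 3 members in Dex against DMSO, KLA against DMSO, DexKLA against DMSO, DexKLA against KLA and the averaged effect.

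Genes called in Dex against DMSO were 650 with the DESeq2 test, 909 with no filter, 1348 with the compared groups alone, 129 with depth class, 491 in the shallower libraries and 1254 without the 3 libraries. In KLA against DMSO they were 4 with depth class, 1047 with the length trend removed and 1000 without the 3 libraries. In DexKLA against DMSO they were 920 with the DESeq2 test, 326 with voom, 987 with no filter, 173 with depth class, 902 in the shallower libraries, 845 with the length trend removed and 1578 without the 3 libraries. In DexKLA against KLA they were 204 with no filter, 38 with the compared groups alone, 57 thinned and 16 in the deeper libraries. In DexKLA against Dex they were 12 with no filter. For the averaged effect they were 312 with no filter and 689 without the 3 libraries. In the interaction they were 0 with DESeq2 size factors, voom, depth class and without the 3 libraries, 230 with library size, 705 with the DESeq2 test, 1040 with no filter, 47 thinned and 2 with the length trend removed. Leaving out each library gave 56 to 915, 5 to 2363, 48 to 1461, 52 to 94, 139 to 317 and 0 to 681 genes in Dex against DMSO, KLA against DMSO, DexKLA against DMSO, DexKLA against KLA, the averaged effect and the interaction. The cause of these shifts was not tested. Leaving out libraries that differ most from their group lowers the spread by construction, and DKK4's 24 counts in the shallowest library limit its precision there.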
